A study of Mus musculus with 6 samples.

Results

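The genes described here encode the proteins of the cytosolic ribosome, the particle that translates messenger RNA. They were taken by symbol from the deposited count table: every Rpl or Rps symbol with a plain subunit number, paralogue symbols ending in a letter or digit included, together with Rplp0, Rplp1, Rplp2 and Rpsa, and without rows marked as pseudogenes. This gave 90 of 55291 gene names, 36 of the small (40S) and 54 of the large (60S) subunit. Of these, 86 had enough counts to be tested, 35 of the 40S and 51 of the 60S subunit.

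Transcripts were counted in natural killer (NK) cells sorted from mouse spleen as CD49b-positive, CD3e-negative cells after enrichment on DX5 beads from mice at steady state. One group of 3 mice was wild type for heat shock factor 1 (HSF1), the transcription factor of the heat shock response (WT 1, 2 and 3). The other 3 mice carried HSF1 in which alanine stands in place of serines 303 and 307 (S303/7A 5, 6 and 7, called mutants). Each mouse gave 1 library, and the labels give no strain, age, sex, number of mutant alleles or batch. The WT libraries held 53845572 to 72736406 counts and the mutant ones 43189163 to 47248039, so every S303/7A library was shallower than every WT library.

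A ribosome is built from 2 subunits. The 40S subunit decodes the message and the 60S subunit joins amino acids, and each subunit holds most of its proteins as a single copy. Messenger RNAs of ribosomal proteins begin with a tract of C and T (U in the RNA) bases, the TOP motif, through which the kinase complex mTORC1 and the RNA-binding protein LARP1 set their translation. In resting lymphocytes ribosome production is held low and rises on activation.

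Ribosomal protein genes differed little between the genotypes. Their share of all counts was 1.24%, 1.23% and 1.34% for WT 1, 2 and 3 and 1.20%, 1.30% and 1.20% for S303/7A 5, 6 and 7. The groups overlapped, and WT 3 and S303/7A 6 were each the highest library of their group. The mean share was 1.27% ± 0.0643 in WT against 1.23% ± 0.0619 in the mutants (SD, n = 3 each), a difference smaller than either SD. Each library's 95% Wilson interval was at most 0.00673 percentage points wide, an interval for counting error alone, as reads that carry no molecular identifier do not each stand for a molecule. Counts of 40S genes stood to those of 60S genes in a ratio of 0.790 ± 0.0203 in WT against 0.790 ± 0.0038 in the mutants.

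**Figure D1:**
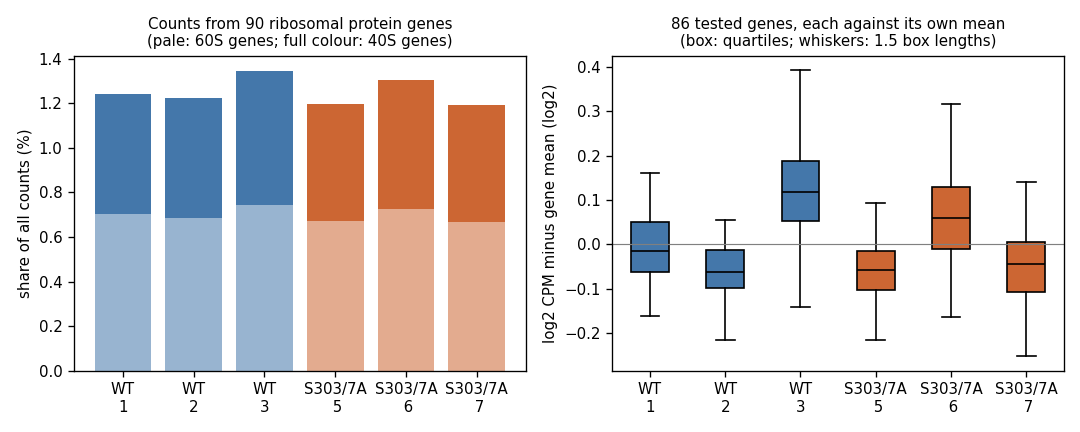
Left, stacked bars give the share of all counts (in %) from the 90 genes in each library, 60S pale and 40S in full colour, WT blue and S303/7A orange. Right, boxes give the log2 CPM of the 86 tested genes in each library minus each gene's own mean over the 6 libraries. WT 3 and S303/7A 6 lie above 0 and the other 4 medians lie below it.

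Libraries of the same genotype differed from each other. Counts were scaled to library size with TMM normalisation and are given as CPM, and each gene was set against its own mean over the 6 libraries on the log2 scale. The median of the 86 genes was 0.12 in WT 3 and 0.06 in S303/7A 6, against -0.01 in WT 1, -0.06 in WT 2, -0.06 in S303/7A 5 and -0.05 in S303/7A 7. The same medians over all 16480 tested genes ran from 0.00212 to 0.0137. WT 3 held the highest value of 47 of the 86 genes and S303/7A 6 that of 27, which leaves 12 for the other 4 libraries. These counts are not given for all tested genes. The group means of these medians differed by -0.03, less than their SD of 0.09 in WT. The lift was alike in both subunits, at 0.13 for 40S and 0.10 for 60S genes in WT 3, and at 0.07 and 0.05 in S303/7A 6.

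WT 3 was the deepest library and stood apart in other measures. Summed over 10 listed markers, B cell transcripts were at 342 CPM in WT 3 and from 540 to 736 in the other libraries, T cell transcripts were at 176 CPM against 210 to 234, and NK cell transcripts were at 24713 CPM against 20456 to 23349. In every library the NK sum exceeded that of each other marker list. Hsf1 itself, whose count cannot show the substitutions, was at 83.2, 104 and 108 CPM in WT against 67.0, 42.2 and 76.9 CPM in the mutants (log2 fold -0.67 ± 0.22 SE, edgeR adjusted p 0.386). Between the genotypes, basophil markers (420 to 858 CPM in WT, 257 to 360 in the mutants) had folds below 0 for 9 of 9 genes. Platelet markers (350.3 to 380 CPM, 184 to 251 in the mutants) did for 8 of 8 tested, against 48.3% of all tested genes. The sums of NK and B cell markers overlapped, with 7 of 10 and 6 of 10 folds above 0. With edgeR 1 basophil and 1 NK marker were called lower (adjusted p under 0.05), as were 0.231% of all tested genes. T cell markers summed to 176 to 216 CPM in WT and to 229 to 234 in the mutants, with 8 of 10 folds above 0. Neutrophil and monocyte markers summed to 70.5 to 108 CPM in WT and to 50.5 to 60.4 in the mutants, with 4 of 7 tested folds below 0. Markers of cycling cells overlapped, at 413 to 486 CPM in WT and 402 to 578 in the mutants, with 10 of 10 folds above 0 and a median of 0.29. Erythroid markers were at 3.01 to 6.99 CPM over all libraries. The part of these cells and of depth in the levels of ribosomal protein genes was not tested. In bulk RNA, fewer cells of a type and less RNA per cell cannot be told apart.

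No ribosomal protein gene passed the test between genotypes. In edgeR's quasi-likelihood test, fitted over 16480 genes with Benjamini-Hochberg adjustment, 0 of 86 had an adjusted p under 0.05, where 0.364% of all tested genes did. At an unadjusted p under 0.05 there were 3, or 3.49%, against 9.68% of all tested genes. Rps4l was higher, as were 4.21% of all tested genes at that p, and Rpl34 and Rps28 were lower, as were 5.47%. DESeq2 called 2 of the 86, Rpl34 lower and Rps4l higher (2.33%, against 2.63% of all tested genes), and limma-voom called 0 (0.231% of all tested genes).

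The log2 folds of S303/7A over WT were packed closely around 0. Their quartiles were -0.09 and 0.02 with a median of -0.04, where those of all tested genes were -0.19 and 0.18 with a median of 0.01. The median was -0.04 for 40S and -0.04 for 60S genes. Of the 86 folds 77 were within 0.2 of 0, as were 8772 of the 16480 over all tested genes. Below 0 were 60 of the 86 (69.8%, against 48.3% of all tested genes). This balance rested on WT 3: without it, 35 of 86 were below 0 and the median was 0.02. The genes are also highly expressed, with a median of 90.5 CPM against 11.9 CPM over all tested genes, and the median SE of their folds was 0.094 against 0.23.

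The intervals of the folds were narrow. For 78 of the 86 genes the 95% interval of the fold lay wholly within 1.5-fold in either direction, as it did for 40.4% of all tested genes. The 8 exceptions were Rpl34, Rps28 and Rps10, whose intervals reached below that bound, Rpl32l, Rps3a2, Rps3a3 and Rps4l, whose intervals reached above it, and Rpl6l, which reached past it on both sides. The last 5 are low-count rows of paralogues or gene copies.

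**Figure D2:**
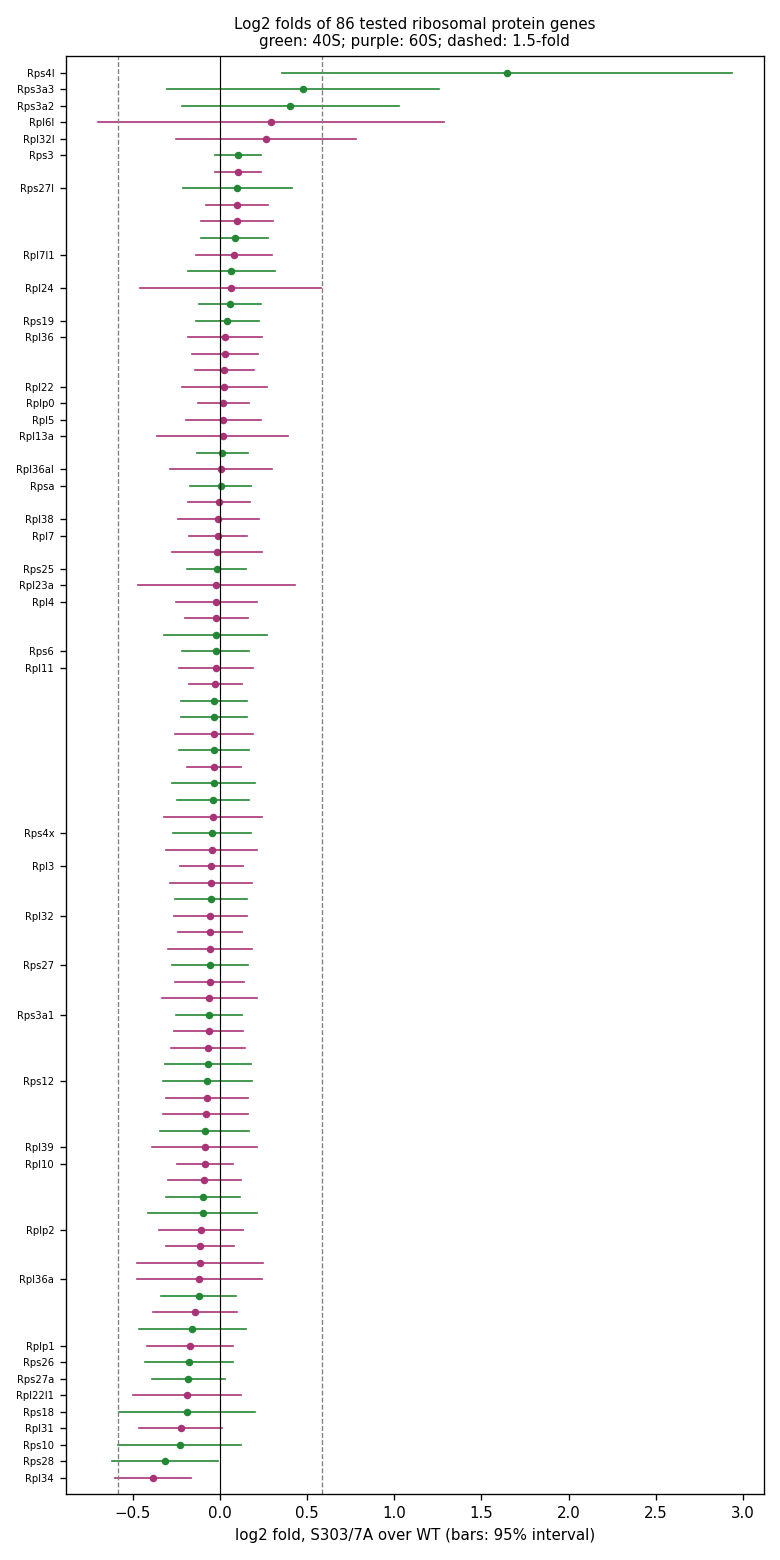
Log2 fold of S303/7A over WT for each of the 86 tested genes, ordered by fold (40S green, 60S purple; some genes are named), with 95% intervals as bars and dashed lines at 1.5-fold. Of the 86 points 77 lie within 0.2 of 0, Rps4l lies farthest out at 1.65, and 78 intervals lie between the dashed lines.

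Rpl34, a 60S protein (chromosome 3, 130726831 to 130730398, GRCm38), had the lowest fold. It was measured at 116, 119.7 and 143 CPM in WT 1, 2 and 3 and at 96.6, 98.5 and 95.1 CPM in the mutants 5, 6 and 7. The groups did not overlap, and the mutants lay closer together than the WT libraries. Its log2 fold was -0.38 ± 0.09 (SE), with a 95% interval from -0.61 to -0.16, and edgeR gave an unadjusted p of 0.00425 and an adjusted p of 0.224. In DESeq2 the adjusted p was 0.0208.

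Rps28, a 40S protein near the channel where messenger RNA leaves the ribosome, came next. It was measured at 54.2, 53.0 and 68.7 CPM in WT against 45.1, 51.7 and 44.7 CPM in the mutants. The groups did not overlap, but S303/7A 6 was only just under WT 2, and WT 3 stood above the rest. The log2 fold was -0.31 ± 0.13 (SE) (edgeR adjusted p 0.502), and it was -0.18 without WT 3.

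Rps18, a protein of the 40S head, lies on the same chromosome 17 as Rps28 (33951999 to 33956001 and 33819027 to 33824562, GRCm38, both on the minus strand). Their lower coordinates are 133 kb apart. Rps18 was measured at 232, 245 and 248 CPM in WT against 183, 275 and 177 CPM in the mutants. S303/7A 5 and 7 were below all WT libraries and S303/7A 6 was above them. The log2 difference of S303/7A 6 from the mean of S303/7A 5 and 7 was 0.61 for Rps18, against 0.20 for Rps28 and 0.04 for Rpl34. The log2 fold of Rps18 was -0.19 ± 0.17 (SE) (edgeR adjusted p 0.805), and it was -0.43 without S303/7A 6 (adjusted p 0.126), -0.10 without S303/7A 5 (0.968) and -0.08 without S303/7A 7 (0.920). Of its 50-base stretches 86.7% also occur in other annotated genes, so its counts are uncertain.

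**Figure D3:**
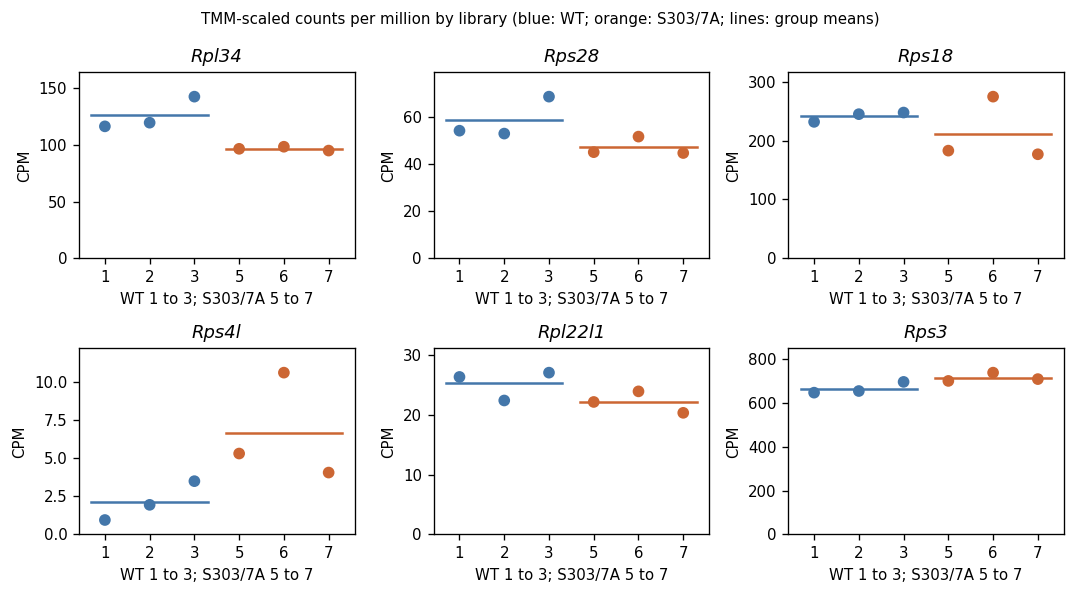
TMM-scaled CPM by library for Rpl34, Rps28, Rps18, Rps4l, Rpl22l1 and Rps3 (vertical axes start at 0, each with its own scale; blue WT, orange S303/7A, lines group means). Rpl34 and Rps28 are lower and Rps4l and Rps3 higher in every S303/7A library, and Rps18 is low in S303/7A 5 and 7 and high in S303/7A 6.

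Genes without overlap between the groups were found at shares near those among all tested genes. In 5 of the 86 genes all mutants lay under all WT libraries, which is 5.81%, where it was 8.37% of all tested genes. They were Rpl34, Rps28, Rpl31, Rps27a and Rps26. Rpl31 sits where the new chain leaves the 60S subunit and was at 38.8, 38.3 and 42.7 CPM in WT against 34.6, 35.4 and 32.4 CPM. Rps27a, made as a fusion with ubiquitin, was at 116, 108 and 132 CPM against 105, 106 and 103 CPM.

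In the other direction 6 genes were higher without overlap, or 6.98%, against 7.64% of all tested genes. Among them were Rps3, Rps4l, Rpl32l, Rps3a2 and Rps3a3. Rps3, which lines the channel where messenger RNA enters the 40S subunit, was at 648, 655 and 697 CPM in WT against 701, 739 and 709.5 CPM in the mutants. The distance between the groups was small, with WT 3 at 697 CPM just under S303/7A 5. Its log2 fold was 0.10 ± 0.06 (SE), with a 95% interval from -0.03 to 0.24. Its adjusted p was 0.638 with edgeR.

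Some ribosomal proteins have a second gene with a closely related product. Rps4l, a copy of the X-linked Rps4x without introns on chromosome 6 (148354656 to 148355598, GRCm38), had the highest fold of all members. It was measured at 0.935, 1.93 and 3.48 CPM in WT against 5.29, 10.6 and 4.05 CPM in the mutants. Both groups were widely spread, and WT 3 lay close to S303/7A 7. Its log2 fold was 1.65 ± 0.55 (SE) (adjusted p 0.396 with edgeR, 0.0485 with DESeq2), and it ran from 1.14 without S303/7A 6 to 2.21 without WT 3. Rps4x itself was at 138 ± 15.4 CPM in WT against 133 ± 5.35 in the mutants (SD, n = 3). Per kilobase of exons, Rps4l made up 2.52% ± 1.28 of the pair in WT against 7.88% ± 3.98 in the mutants.

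Rpl22, an RNA-binding 60S protein known for its part in T cell development, and its paralogue Rpl22l1 were both measured. Rpl22 was at 52.5 ± 4.13 CPM in WT against 53.3 ± 4.27 in S303/7A, and Rpl22l1 at 25.3 ± 2.51 and 22.2 ± 1.80 CPM (SD, n = 3). Per kilobase, Rpl22l1 made up 42.5%, 40.4% and 41.2% of the pair in WT and 38.8%, 37.6% and 37.1% in S303/7A. The shares did not overlap. An exact permutation test of 3 against 3 cannot give a p below 0.10, and neither gene passed on its own, with log2 folds of 0.02 ± 0.10 and -0.19 ± 0.13 (SE).

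Per kilobase of exons, Rps27l made up 24.0% ± 1.57 of its pair with Rps27 in WT against 26.0% ± 0.850 in the mutants. Rpl7l1 made up 22.8% ± 1.14 and 23.9% ± 1.78 of its pair with Rpl7, and Rpl36al 57.7% ± 2.60 and 59.6% ± 0.721 of its pair with Rpl36a (SD, n = 3). The size of these shares depends on the length used. Per kilobase of the principal annotated transcript, Rpl36a exceeded Rpl36al, at 51.8 against 22.7 CPM per kb. By that length Rps27 was at 683 and Rps27l at 123 CPM per kb. The groups overlapped in the pairs of Rpl7 and Rpl36a and did not in that of Rps27, where WT 1 reached 24.99% and S303/7A 5 was at 25.2%. The shares of the low-count rows Rps4l, Rps3a2 and Rps3a3 in their pairs did not overlap either. How often shares of other gene pairs separate in these libraries was not tested. The genes of a pair also differ in how much sequence they share with other annotated genes. Of the 50-base stretches of Rps27 98.65% also occur in other genes, against 22.4% for Rps27l. For Rpl36a it was 85.5% against 24.9% for Rpl36al, and for Rpl22 5.2% against 57.3% for Rpl22l1. The sizes of these shares are therefore uncertain. The copies Rps3a2 and Rps3a3 made up at most 1.23% of their pairs with Rps3a1 in any library. They were at 1.58 ± 0.152 and 0.804 ± 0.0912 CPM in WT against 2.09 ± 0.203 and 1.12 ± 0.0984 CPM in the mutants.

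The 4 genes too low to test are paralogues or copies as well. Rpl39l had 14 counts over the 6 libraries, 11 of them in S303/7A 6, and Rpl3l had 2. Rpl10l and Rps12l1 had 0 in every library. All 50-base stretches of Rps12l1 also occur in Rps12, which was at 51.6 to 64.9 CPM, so a count of 0 does not show that Rps12l1 was silent.

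None of the genes with well-known further roles passed the test. Rpl5 and Rpl11, which with 5S ribosomal RNA bind MDM2 and so stabilise p53, had log2 folds of 0.02 ± 0.09 and -0.03 ± 0.09 (SE). Rps6, the substrate of the S6 kinases downstream of mTORC1, was at 90.4 ± 2.15 CPM in WT against 88.8 ± 6.80 in S303/7A (SD, n = 3). Rps19, the gene most often mutated in Diamond-Blackfan anaemia, had a log2 fold of 0.04 ± 0.08, and Rps26, another gene of that disease, -0.18 ± 0.11 (-0.07 without WT 3). Rpl10, which joins the 60S subunit late in its assembly, Rpl38 and Rps25, both linked to the translation of chosen messages, had folds of -0.09 ± 0.07, -0.01 ± 0.10 and -0.02 ± 0.07. Rpsa, also known as the laminin receptor, was at 314 ± 17.7 and 315 ± 19.8 CPM.

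The stalk of the 60S subunit, which recruits translation factors, is made of Rplp0, Rplp1 and Rplp2. Rplp0, often used as a reference gene, was at 431, 449 and 453 CPM in WT against 441, 478 and 432.5 CPM in the mutants, and the groups overlapped. Its log2 fold was 0.02 ± 0.06 (SE), with a 95% interval from -0.13 to 0.17. Rplp1 and Rplp2 had folds of -0.17 ± 0.10 and -0.11 ± 0.10, and none of the 3 passed. Without 1 library the fold of Rplp1 ran from -0.26 (without WT 1) to -0.09 (without WT 2), and that of Rplp2 from -0.19 (without S303/7A 6) to -0.03 (without WT 3).

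The transcripts were counted at very unequal levels, although most ribosomal proteins are present once in each ribosome. Per kilobase of the union of exons, the 86 genes had a median of 46.6 CPM per kb, against 3.34 CPM per kb over 16117 tested genes with a length. Among the highest were Rpl4 at 367, Rpl32 at 328, Rpl36 at 289.97, Rplp0 at 269.8, Rplp1 at 258 and Rps3a1 at 239 CPM per kb. The lowest of all was Rpl6l at 0.543 CPM per kb. Apart from the gene copies Rpl6l, Rps3a3, Rps3a2 and Rps4l, the lowest were Rpl24 (3.92), Rps10 (8.17) and Rpl23a (9.67 CPM per kb). Rpl4, which lines the exit tunnel, gave the most counts, 5.86% of those of all 90 genes, and the top 10 genes gave 38.8%. With the principal transcript as length Rps27 was among the highest, at 683 CPM per kb.

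Many of these genes share sequence with other annotated genes, processed pseudogenes among them. For Rpl24 and Rpl23a 81.7% and 82.6% of the 50-base stretches of the principal transcript occur in another annotated gene, and for Rps3 2.96%. Over the 86 genes Spearman's rho between the level per kilobase of the principal transcript and that share was 0.05 (across genes, which share libraries and are not replicates). Rows marked as ribosomal protein pseudogenes by -ps in an Rpl or Rps symbol held 0.0188% to 0.0234% of the counts in the 6 libraries. Rows under other names are not in that figure. Among them are Gm11361 and Gm10132, the genes that share most with Rps18 and Rpl23a. The figure is therefore not the share of all sequence copies. How reads with several matches were counted is not given in the sources used here.

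**Figure D4:**
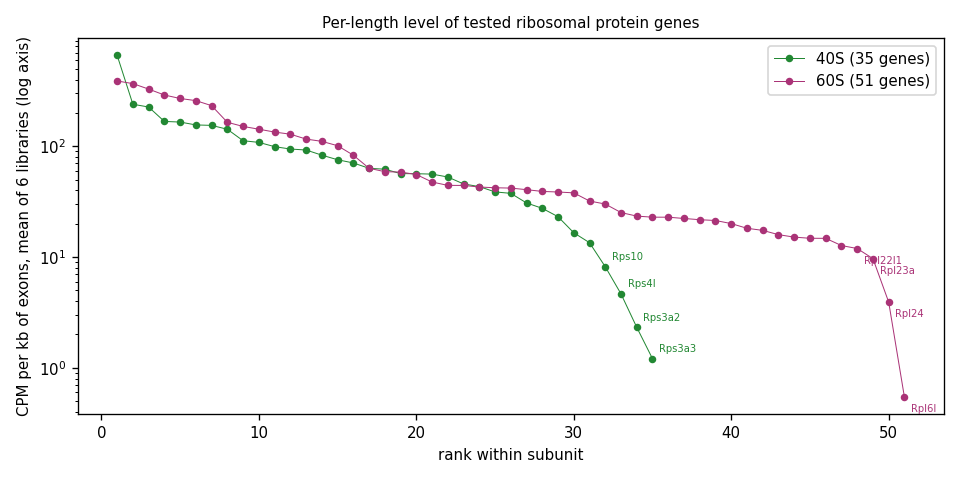
Per-length level of the 86 tested genes (CPM per kb of exons, mean of 6 libraries, log axis) ranked within each subunit, 40S green and 60S purple. The 4 lowest genes of each subunit are named, and Rpl6l is lowest at 0.543 CPM per kb.

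Promoter sequence was read for the TOP tract. RefSeq promoter windows (GRCm38.p6, 250 bases before to 50 after a start) were matched by symbol for 65 of the 90 genes. A TOP start was counted where the first transcribed base is C and the next 4 are C or T on the gene's strand, which held for 14 of the 65 (21.5%) and for 3.01% of 27025 genes. The starts of the 6 members with the lowest folds, and of Rps6 as an example of a TOP gene, are printed from 30 bases before the RefSeq start to 20 after it, 5′ to 3′ on the gene's strand. Capitals mark an unbroken C and T tract that begins with C at the start.
Rpl34, first of 2 starts, chr3:130730379-130730428, minus strand: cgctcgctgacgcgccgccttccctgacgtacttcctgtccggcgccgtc
Rpl34, the other start, chr3:130730318-130730367, minus strand: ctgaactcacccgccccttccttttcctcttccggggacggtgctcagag
Rps18, chr17:33955646-33955695, minus strand: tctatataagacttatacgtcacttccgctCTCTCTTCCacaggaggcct
Rps10, chr17:27635225-27635274, minus strand: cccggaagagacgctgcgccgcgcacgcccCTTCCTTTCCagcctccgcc
Rps6, chr4:86857348-86857397, minus strand: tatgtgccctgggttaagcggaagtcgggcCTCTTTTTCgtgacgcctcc
Rps28, chr17:33824543-33824592, minus strand: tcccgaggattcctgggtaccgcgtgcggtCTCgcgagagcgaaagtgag
Rpl31, chr1:39367821-39367870, plus strand: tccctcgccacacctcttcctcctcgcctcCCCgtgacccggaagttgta
Rpl22l1, chr3:28805478-28805527, plus strand: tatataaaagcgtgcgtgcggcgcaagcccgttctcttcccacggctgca
The tract is 9 bases long in Rps18 and Rps6, 10 in Rps10 and 3 in Rps28 and Rpl31, which is too short to count as a TOP start, and Rpl34 and Rpl22l1 have none at these starts. RefSeq starts can lie some bases from the start used in these cells, so a missing tract says only that these letters are not at that base.

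HSF1 binds heat shock elements, which are GAA units in alternating direction. A row of 3 such units (GAANNTTCNNGAA on either strand) was found in the windows of 2 of the 65 genes, Rps18 and Rpl22 (3.08%, against 0.662% of 27025 genes). The pair GAANNTTC was in 4 (6.15%, against 9.04%) and the pair TTCNNGAA in 5 (7.69%, against 9.60%), and both pairs lie inside the longer motif. Other motifs were also searched on either strand. The motif CCGGAAG of ETS factors was in 26 of the 65 (40%) and in 9.93% of all genes. The motif GATGGCG of YY1 was in 5 (7.69%, against 4.04%) and the E-box CACGTG in 6 (9.23%, against 8.09%). The heat shock element of 3 units is printed in capitals with 14 bases on each side.
Rps18, chr17:33955854-33955894, minus strand: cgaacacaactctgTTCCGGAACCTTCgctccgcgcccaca
Rpl22, chr4:152324413-152324453, plus strand: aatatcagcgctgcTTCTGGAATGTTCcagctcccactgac
The element begins 215 bases before the start in Rps18 and 9 bases before the upstream of 2 RefSeq starts in Rpl22. That Rpl22 window (152324186 to 152324485) lies wholly before the GENCODE start of the gene at 152325742. The window of the other RefSeq start (152325476 to 152325775), which holds the GENCODE start, has no such element. Rps18 had a log2 fold of -0.19 ± 0.17 and Rpl22 one of 0.02 ± 0.10 (SE). A match is a description of letters, and binding was not measured here.

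Related genes of ribosome production and translation gave no call either. Across these lists 0 genes passed with edgeR, where 0.364% of all tested genes did, and 7 reached an unadjusted p under 0.05. The 7 were 1 of 61 nucleolar factors, 1 of 15 RNA polymerase I genes, 1 of 24 mTORC1 and LARP1 genes and 1 of 11 quality control genes. The rest were mitochondrial ribosomal proteins, 1 higher and 2 lower of 78. Of all tested genes 9.68% reached that p. Among 61 nucleolar processing and assembly factors the median log2 fold was -0.02, among 15 tested RNA polymerase I genes 0.01, among 28 initiation factors 0.03, among 78 mitochondrial ribosomal proteins -0.01 and among 24 genes of the mTORC1 and LARP1 pathway -0.00496. The median was -0.03 among 10 chaperones and importers of ribosomal proteins and -0.06 among 11 tested genes of ribosome quality control, and all tested genes had a median of 0.01. Map3k20, the kinase that senses stalled ribosomes, had a log2 fold of -1.29 ± 0.44 (SE, edgeR adjusted p 0.407) at a mean of 1.89 CPM in WT. DESeq2 called 1 of these genes, Pes1, a nucleolar factor of 60S assembly, where it called 2.63% of all tested genes. Pes1 was at 75.8, 79.5 and 79.2 CPM in WT against 99.6, 112 and 100.1 CPM in the mutants, without overlap. Its log2 fold was 0.41 ± 0.08 (SE) (adjusted p 0.125 with edgeR, 0.0011 with DESeq2).

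Proteins that sit on or in the ribosome under other names did not pass either. Fau, made as a fusion with a ubiquitin-like protein, had a log2 fold of 0.07 ± 0.09 (SE), and Rack1, a scaffold on the 40S head, 0.07 ± 0.06. Of 18 other TOP transcripts 11 were below 0 and 7 above, with a median of -0.01. Eef1a1, the elongation factor, was at 2575 ± 91.8 CPM in WT against 2564 ± 94.9 in S303/7A (SD, n = 3). The 7 TOP host genes of small nucleolar RNAs all had folds below 0 (48.3% of all tested genes did), with a median of -0.26. Their sum was at 171.6, 176 and 187 CPM in WT against 170.9, 144 and 150 CPM in the mutants. These sums did not overlap, but S303/7A 5 lay just under WT 1. Among the 7, Gas5 was at 117, 116 and 124 CPM in WT against 118, 97.5 and 99.6 CPM in the mutants, which overlapped. None of the 7 had an unadjusted p under 0.05 in edgeR's test.

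**Figure D5:**
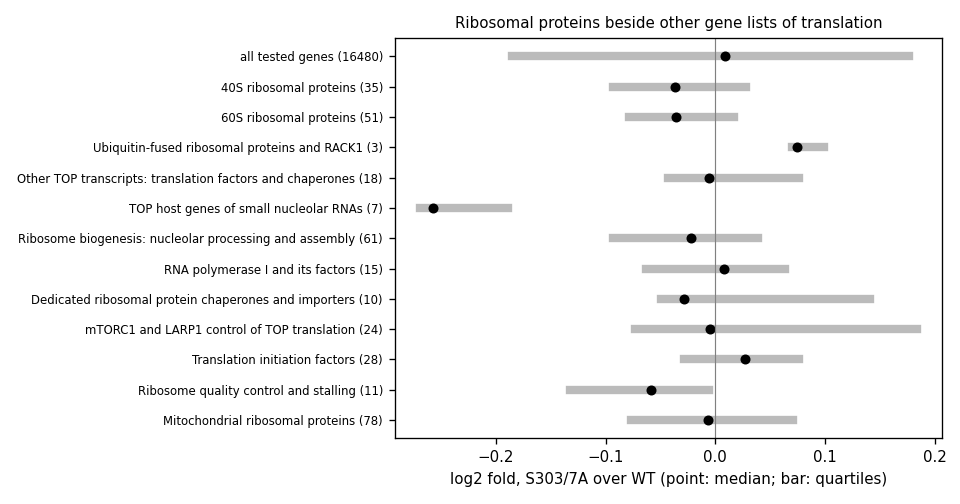
Log2 folds of S303/7A over WT for all tested genes, for 40S and 60S ribosomal proteins and for the related lists (number of tested genes in brackets), with medians as points and quartiles as bars. The ribosomal protein medians lie at -0.04, inside the quartiles of all genes (-0.19 and 0.18), and the snoRNA host genes lie lowest at -0.26.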

How the data were processed

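The submitters' processing notes name Trimmomatic, STAR, featureCounts, DESeq2 and the build mm10 (GRCm38). Not given in the sources used here: versions, annotation release, strand setting and treatment of reads with several matches. Whole-number counts per gene were deposited; a second, normalized table was left aside. No row named anything but a gene.

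In R 4.3.3, genes passing edgeR's filterByExpr (minimum count 10, total 15) were scaled by TMM and tested with edgeR 4.0.16's quasi-likelihood test, with Benjamini-Hochberg adjustment over all 16480 and a threshold of 0.05. The printed log2 fold is edgeR's, which is drawn slightly towards 0. SE is the size of the log2 fold before that step, divided by the root of the F statistic. The 95% intervals are centred on the fold before that step and use the test's degrees of freedom. Alternatives were DESeq2 1.42.0, limma-voom (limma 3.58.1), other scalings, no filter, thinning and leaving out each library.

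Positions and lengths are from GENCODE release 21 for mouse, which held all 90 genes; sequences are from RefSeq (GRCm38.p6). Shared sequence was counted as 50-base stretches found in transcripts of other GENCODE genes.

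Members and lists were chosen with earlier results of these data known. Named genes were the 6 highest and 6 lowest folds, the 8 highest levels per length, paralogue pairs, 12 chosen members and, from each related list, the called genes or the gene with the smallest p; the rest were named after their values were seen. Some genes that this rule names are not reported here.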

Additional observations from a re-analysis of the deposited data

How the results depend on the processing

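No paired analysis was possible because the groups share no replicate number. The counts of 0 higher and 0 lower ribosomal protein genes were the same in every alternative but DESeq2, which called 1 higher and 1 lower and, over all tested genes, 434 (2.63%) against 60 (0.364%) with edgeR. DESeq2 called 1 gene of the related lists, a check added after the data were seen. The median log2 fold of the genes ran from -0.08 without WT 2 to 0.02 without WT 3, and from -0.06 with library totals to -0.04 in the other fits on 6 libraries. The difference in the share of counts, S303/7A minus WT, was -0.0384 percentage points and ran from -0.0741 to -0.00168 without 1 library, the last without WT 3. The median level rose from 46.6 to 80.0 CPM per kb with the longest transcript and to 102 with the principal transcript, a choice made after the data were seen, because these lengths are shorter than the union of exons.

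Of 43 members followed, 7 changed sign in a fit on 6 libraries. With library totals the log2 fold was -0.0011 for Rpl36, -0.0093 for Rplp0, -0.0049 for Rpl22, -0.022 for Rpl36al, -0.0097 for Rpl5, -0.014 for Rpl13a and -0.025 for Rpsa. Without the low-count filter it was -0.0027 for Rpl36al and -0.0043 for Rpsa, after thinning -0.0018 and -0.00027, and -0.0049 for Rpl13a, and with limma-voom -0.00014 for Rpl36al and -0.013 for Rpl13a. Without 1 library, 25 changed sign, none of them called. Their ranges were -0.13 to 0.053 for Rpl4, -0.13 to 0.0010 for Rpl32, -0.024 to 0.11 for Rpl36, -0.026 to 0.045 for Rplp0, -0.099 to 0.0048 for Rpl3, -0.075 to 0.045 for Rpl7, -0.045 to 0.083 for Rpl22, -0.24 to 0.018 for Rpl36a, -0.18 to 0.036 for Rpl39, -0.12 to 0.045 for Rps4x, -0.13 to 0.015 for Rps27, -0.0053 to 0.15 for Rpl7l1, -0.091 to 0.055 for Rpl36al, -0.0085 to 0.21 for Rps27l, -0.056 to 0.094 for Rpl5, -0.066 to 0.034 for Rpl11, -0.089 to 0.016 for Rps6, -0.028 to 0.085 for Rps19, -0.080 to 0.040 for Rpl38, -0.068 to 0.019 for Rps25, -0.054 to 0.15 for Rpl24, -0.18 to 0.065 for Rpl23a, -0.14 to 0.027 for Rps12, -0.16 to 0.13 for Rpl13a and -0.045 to 0.046 for Rpsa. The cause was not tested.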

Other observations

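Of the 86 tested genes 71 were higher in S303/7A 6 than in the mean of S303/7A 5 and 7 on the log2 scale, with a median difference of 0.12. The same count over all tested genes is not given, so it is not shown to be particular to these genes. The widest differences, picked after the values were seen, were 1.19 for Rps4l, 0.61 for Rps18, 0.47 for Rpl13a and 0.43 for Rpl23a. Chromosome 17 holds 7 of the tested genes. Of these, Rps18 had the widest such difference and Rps28 was at 0.20.

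Members with shorter principal transcripts (43 genes, median 612 bases) had a median deviation of 0.15 in WT 3 and -0.08 in S303/7A 5 on the log2 scale, and the 43 longer ones (median 1158 bases) 0.10 and -0.05. Across the 86 genes, which are not replicates, Spearman's rho between deviation and length was -0.27 in WT 3 and 0.29 in S303/7A 5, and from -0.02 to 0.07 in the other 4 libraries.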
